A study of Homo sapiens with 4 samples.

Results

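The inhibitors of apoptosis and the proteins that counteract them were followed at the RNA level in HCT116, a cell line established from a human colorectal carcinoma, after exposure to HJ-4, a derivative of the black pepper alkaloid piperine. The genes were taken by name: 6 inhibitors (XIAP, BIRC2, BIRC3, BIRC5, BIRC6 and API5) and 3 antagonists (DIABLO, HTRA2 and XAF1), 9 of the 20263 genes counted. All 9 were present in the count table, and 8 held enough reads to be tested, XAF1 being the exception. Bulk RNA was sequenced from 2 libraries of cells given 32 µM HJ-4 for 24 h and from 2 libraries of cells given 0.1% DMSO, the solvent, for 24 h. The paper's methods give the same dose of HJ-4, whereas the legend of its transcriptome figure gives a lower one. The cells of all 4 libraries are labelled WT in genotype, and no engineered change is named for either condition. The paper's methods speak of biological triplicates, whereas 2 libraries per condition were analysed here, and the labels do not say whether these came from separate cultures. Each p-value is therefore set against library-to-library spread, part or all of which may be technical.

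Inhibitor of apoptosis proteins (IAPs) carry the BIR domain, after which the BIRC genes are named. XIAP binds and blocks active caspases directly, the cIAP proteins encoded by BIRC2 and BIRC3 are ubiquitin ligases that act in TNF receptor and NF-κB signalling, and survivin, encoded by BIRC5, is best known as a mitotic protein that tumours carry at high levels. When mitochondria are permeabilized, DIABLO (SMAC) and HTRA2 (Omi) are released into the cytosol, where they bind IAPs and free the caspases.

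Total counts were 34359889 and 33762230 in the HJ-4 libraries and 31120459 and 29769568 in the DMSO libraries. Of the epithelial and colorectal markers EPCAM, KRT8, KRT18, KRT19, CDH1, VIL1, CDX1, CDX2 and LGALS4, 6 of 9 passed the filter on low counts, and the 9 summed to 4190 and 4390 CPM (counts scaled to the size of the library) with HJ-4 and to 4470 and 3980 CPM with DMSO. VIL1, CDX1 and LGALS4, markers of differentiated colon epithelium, held between 0 and 15 counts in each library. Of 13 markers of fibroblasts, immune cells and endothelium, 4 passed the filter: COL1A1, PDGFRB, CD68 and VWF. PDGFRB held 24 and 8 counts with HJ-4 and 14 and 8 with DMSO. VWF held 47 and 40 counts with HJ-4 and 31 and 21 with DMSO. Among those that did not pass, PTPRC, CD3E, COL1A2 and DCN held between 0 and 2 counts in each library, while LYZ reached 13 and COL3A1 7. The fibroblast markers summed to 59.0 and 61.3 CPM with HJ-4 and to 63.1 and 59.8 CPM with DMSO, nearly all from COL1A1, and the endothelial markers to at most 1.44 CPM. The immune markers summed to 46.5 and 50.8 CPM with HJ-4 and to 40.3 and 34.2 CPM with DMSO, nearly all from the lysosomal gene CD68, whose part in the results was not tested. In bulk RNA, fewer cells that express a gene and less RNA per cell cannot be told apart.

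API5 and BIRC3 were higher in HJ-4-treated cells, at 2.07 and 1.52 times their DMSO means, BIRC5 was lower at 0.711 times, and XIAP, BIRC2, BIRC6, DIABLO and HTRA2 lay between 0.968 and 1.17 times. In edgeR's quasi-likelihood test with Benjamini-Hochberg adjustment, 0 of the 8 had an adjusted p under 0.05, and 7 of all 14044 genes tested did (0.0498%, with 0.0427% higher and 0.00712% lower). That number rests on single libraries, being 88 (0.612%) without DMSO replicate 1, 34 (0.237%) when DMSO replicate 2 was left out and 0 when either HJ-4 library was, and none of the 8 was called in any of these fits. When p was left unadjusted, 3 of the 8 were higher at 0.05 (API5, BIRC3 and DIABLO), where 7.93% of all genes were higher, and 1 was lower (BIRC5), where 7.93% of all genes were lower, 15.9% in all. API5 and BIRC3 kept this unadjusted call in all 11 alternatives, BIRC5 lost it without HJ-4 replicate 1, and DIABLO lost it when any 1 library was left out, with the replicate block, with total counts, without a filter and in DESeq2. XIAP gained it without DMSO replicate 1 and BIRC6 without DMSO replicate 2. The Wald test of DESeq2 called API5 and BIRC3 as higher, 2 of the 8, and none of the 8 as lower, beside 3.67% of all genes it adjusted (2.15% higher and 1.53% lower). The conditions did not overlap for 5 of the 8 genes, higher with HJ-4 for 4 and lower for 1, and this held for 50.8% of all genes tested (25.2% higher and 25.6% lower), so that such a separation was by itself common. With 2 libraries against 2, an exact two-sided permutation test of a single gene cannot go below p = 0.333. The median log2 fold change was 0.15 over the 8 genes and 0.0040 over all genes tested, with quartiles of -0.17 and 0.18.

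**Figure D1:**
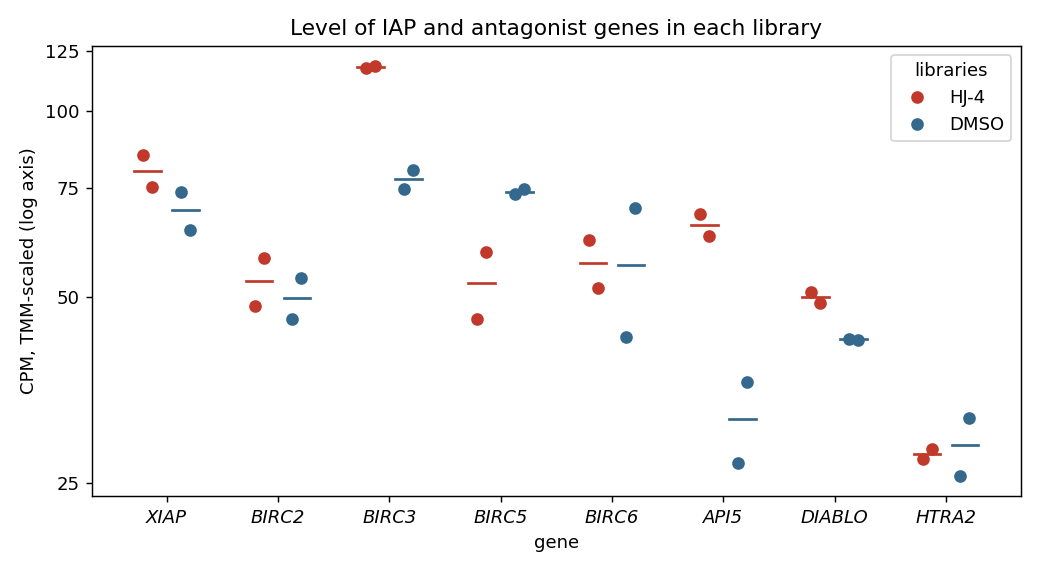
CPM (TMM-scaled, log axis) of the 8 tested genes in each library, with HJ-4 to the left of DMSO for each gene. Each library is a point and each group mean a horizontal line, and the groups stand apart for API5 (62.9 and 68.1 CPM with HJ-4, 26.9 and 36.5 CPM with DMSO) but cross for BIRC2, BIRC6 and HTRA2.

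API5, which encodes a nuclear anti-apoptotic protein without a BIR domain, showed the widest difference of the family. Its level was 68.1 and 62.9 CPM with HJ-4, against 26.9 and 36.5 CPM with DMSO. The conditions did not overlap, and the lower HJ-4 library was still 1.73 times the higher DMSO library. The DMSO libraries differed from each other by 1.35 times, more than the HJ-4 libraries did at 1.08 times. The means were 65.5 ± 3.68 CPM with HJ-4 and 31.7 ± 6.72 CPM with DMSO (SD, n = 2 each). The log2 fold change was 1.05 (standard error 0.17, 95% interval 0.62 to 1.48), which did not pass in edgeR (adjusted p = 0.13). Of all genes tested, 1.3% had a log2 fold change as high or higher. DESeq2 gave API5 an adjusted p of 1.1e-05, and the adjusted p ranged up to 0.56 over 11 alternative analyses. The log2 value was 0.85 without DMSO replicate 1 and 1.28 without DMSO replicate 2. API5 lies on chromosome 11 of GRCh38 from 43311963 to 43344529 in GENCODE v44, where it shares 201 exon bases with an opposite-strand long non-coding RNA that the table does not count.

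BIRC3, the gene of cIAP2, had 117 and 118 CPM with HJ-4, against 74.9 and 80.4 CPM with DMSO. The libraries of each condition lay close together, and the gap between the conditions was wider than the spread within either. The means were 118 ± 0.549 CPM with HJ-4 and 77.6 ± 3.89 CPM with DMSO (SD, n = 2 each). On the log2 scale the difference was 0.60 (standard error 0.083, 95% interval 0.39 to 0.81), with an adjusted p of 0.11 in edgeR and of 2.1e-05 in DESeq2, within a range of 2.1e-05 to 0.51 over 11 alternatives. A log2 fold change as high was found for 4.29% of all genes. BIRC2, the gene of the related ligase cIAP1, was at 48.3 and 57.9 CPM with HJ-4 and at 46.1 and 53.6 CPM with DMSO. The 2 conditions overlapped for BIRC2, and its log2 fold change was 0.091 (standard error 0.14, 95% interval -0.26 to 0.44, adjusted p = 0.77 in edgeR), an interval that leaves room for a BIRC2 level between 0.836 and 1.36 times that of DMSO. Its sign turned when HJ-4 replicate 2 was left out (-0.059) and when DMSO replicate 1 was (-0.013). BIRC3 held 2.43 and 2.04 times the counts of BIRC2 in the HJ-4 libraries and 1.62 and 1.5 times in the DMSO libraries, a comparison within each library that no scaling between libraries enters. Whether BIRC3 and BIRC2 differ in their log2 fold change was not tested.

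BIRC3 and BIRC2 stand one behind the other on the plus strand of chromosome 11, BIRC3 from 102317484 to 102339403 and BIRC2 from 102347211 to 102378670, with 7807 bases between them. The 250 bases before their RefSeq start sites, and those before that of API5, are printed because these 3 genes are a neighbouring pair and the gene with the widest difference. They come from RefSeq promoters on GRCh38.p14, plus strand, at chr11:102317234-102317483 for BIRC3, chr11:102346964-102347213 for BIRC2 and chr11:43311746-43311995 for API5. Each window was picked at the start of the transcript that GENCODE v44 marks as canonical. The BIRC2 and API5 windows therefore end just inside the GENCODE gene spans given here, which begin earlier. The windows were searched on both strands for the consensus of NF-κB, a transcription factor that activates BIRC3, and for TTTGAA, the letters of the cell cycle homology region of many mitotic genes. Capitals mark each match.
BIRC3: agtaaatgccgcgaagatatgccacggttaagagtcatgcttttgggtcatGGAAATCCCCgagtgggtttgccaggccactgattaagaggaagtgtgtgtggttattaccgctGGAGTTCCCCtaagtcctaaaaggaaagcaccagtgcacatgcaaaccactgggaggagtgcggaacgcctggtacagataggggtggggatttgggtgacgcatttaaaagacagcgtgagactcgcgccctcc
BIRC2: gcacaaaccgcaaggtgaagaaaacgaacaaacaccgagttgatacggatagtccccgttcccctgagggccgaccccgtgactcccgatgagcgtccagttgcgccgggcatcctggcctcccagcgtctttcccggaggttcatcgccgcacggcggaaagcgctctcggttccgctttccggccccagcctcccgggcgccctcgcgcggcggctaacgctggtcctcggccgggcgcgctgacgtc
API5: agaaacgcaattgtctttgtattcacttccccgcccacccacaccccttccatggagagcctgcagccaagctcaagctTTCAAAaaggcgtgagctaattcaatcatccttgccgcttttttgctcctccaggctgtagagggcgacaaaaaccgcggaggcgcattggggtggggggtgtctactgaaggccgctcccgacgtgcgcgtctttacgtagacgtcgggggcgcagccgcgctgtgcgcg
The BIRC3 window held 2 NF-κB matches, both on the minus strand, at bases -199 to -190 and -135 to -126 from the start site. The printed BIRC2 and API5 windows held none, nor did the windows of XIAP, DIABLO and HTRA2, 1 of 2 windows held a match for BIRC6 and for XAF1, and 9.96% of 35116 RefSeq promoter windows of the same length hold at least 1. The API5 window held 1 minus-strand match to TTTGAA (printed as TTCAAA), which 13.3% of all windows hold. These matches are letters in a window and not measured binding sites. The tables used here hold no promoter window for BIRC5.

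BIRC5, the gene of survivin, was the only one of the 8 that was lower in both HJ-4 libraries. It had 46.0 and 59.2 CPM with HJ-4, against 73.3 and 74.7 CPM with DMSO. The DMSO libraries were nearly equal, the HJ-4 libraries differed by 1.29 times, and the higher of these stayed below both DMSO libraries by a factor of 1.24. The means were 52.6 ± 9.35 CPM with HJ-4 and 74.0 ± 0.977 CPM with DMSO (SD, n = 2 each). Its log2 fold change was -0.49 (standard error 0.14, 95% interval -0.85 to -0.13), with an adjusted p of 0.24 in edgeR and of 0.088 in DESeq2, within 0.088 to 0.69 over the alternatives. A value as low was found for 5.69% of all genes. HJ-4 replicate 1 carried much of it: the log2 fold change was -0.31 without that library and -0.70 without HJ-4 replicate 2. BIRC5 lies on chromosome 17 of GRCh38 from 78214186 to 78225636.

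Survivin works in mitosis as a subunit of the chromosomal passenger complex, and the genes of the other 3 subunits had values below 0 as well. AURKB, the kinase of the complex, was at 39.5 and 40.1 CPM with HJ-4 and at 57.0 and 52.5 CPM with DMSO (log2 fold change -0.46, standard error 0.093, adjusted p = 0.17 in edgeR). For INCENP, the scaffold of the complex, the log2 fold change was -0.35, and for CDCA8, the gene of borealin, -0.14. None of the 3 passed in edgeR over all genes, 2 were lower at 0.05 without adjustment, where 7.93% of all genes were, and DESeq2 called AURKB. The unadjusted count was smaller without HJ-4 replicate 1. The median log2 fold change of the 3 was -0.35, and it lay between -0.43 and -0.26 when 1 library was left out. For all 3 genes both HJ-4 libraries lay below both DMSO libraries, as they did for 25.6% of all genes.

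Most mitotic genes differed less between the conditions than BIRC5 did. Of 25, 20 had a log2 fold change below 0, as did 6922 of all 14044 genes. The median was -0.12 beside 0.0040 for all genes, and 1 gene, the proliferation marker MKI67, had a lower value than BIRC5. MKI67 was at 91.5 and 90.1 CPM with HJ-4 and at 172 and 247 CPM with DMSO (log2 fold change -1.2, adjusted p = 0.12 in edgeR). CCNB1, the gene of cyclin B1, stood on the other side with a log2 fold change of 0.23, while the mitotic kinesin gene KIF11 had -0.32 and the transcription factor gene FOXM1 -0.23. None of the 25 passed in edgeR over all genes, and DESeq2 called MKI67 as lower, where 1.53% of all genes it adjusted were. Without adjustment 1 was higher and 1 lower at 0.05, where 7.93% of all genes were higher and 7.93% lower. These counts depend on the DMSO libraries. When DMSO replicate 1 was left out, 10 were lower and 0 higher (median -0.22), where 7.62% of all genes were lower and 9.23% higher. When DMSO replicate 2 was left out, 3 were lower and 6 higher (median -0.07), where 8.9% of all genes were lower and 11.9% higher. The part that the share of dividing cells plays in the BIRC5 level was not tested.

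**Figure D2:**
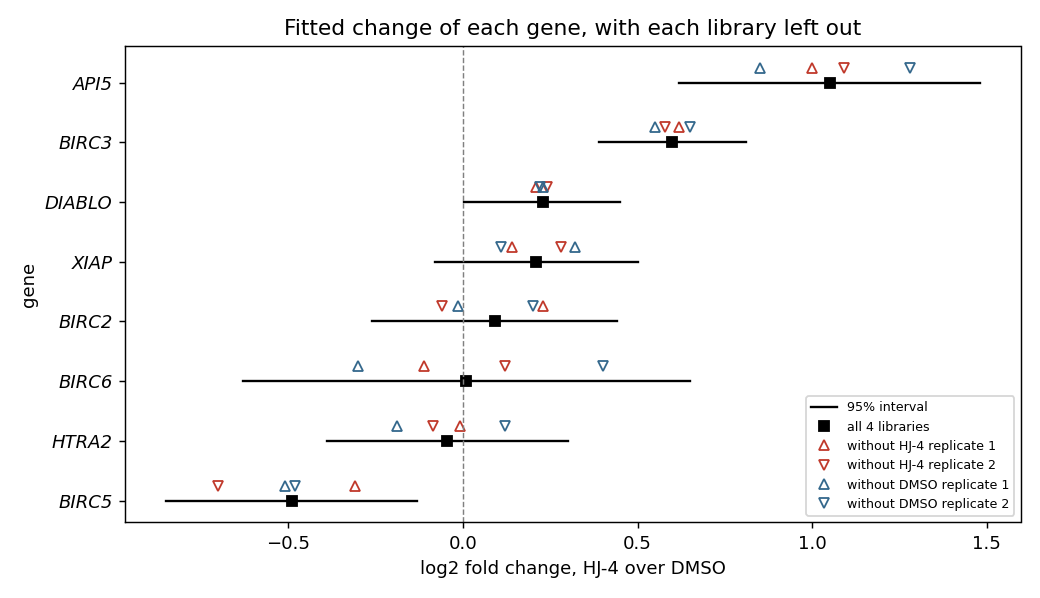
Log2 fold change (HJ-4 over DMSO) of the 8 tested genes from edgeR with its 95% interval, and the value after leaving out each library in turn. Squares are the fit of all 4 libraries and open triangles the fits without 1 library, which keep their sign for API5, BIRC3, DIABLO, XIAP and BIRC5 and fall on both sides of 0 for BIRC2, BIRC6 and HTRA2.

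XIAP, the caspase-binding inhibitor, and BIRC6, a giant protein that is both a ubiquitin-conjugating enzyme and a ligase, had HJ-4 means of 1.16 and 1.01 times their DMSO means. XIAP had 84.8 and 75.4 CPM with HJ-4, against 74.1 and 64.2 CPM with DMSO. The HJ-4 libraries lay above the DMSO libraries by a factor of only 1.02 at the nearest point, and with CPM from total counts they overlapped. The log2 fold change of XIAP was 0.21 (standard error 0.11, 95% interval -0.08 to 0.50, adjusted p = 0.42 in edgeR), and it lay between 0.11 and 0.32 when 1 library was left out. BIRC6 was at 61.8 and 51.7 CPM with HJ-4 and at 43.1 and 69.7 CPM with DMSO. Both HJ-4 libraries fell between the DMSO libraries, which differed by 1.62 times, the widest gap within a condition among the 8 genes. Its log2 fold change was 0.0099 (standard error 0.25, 95% interval -0.63 to 0.65, adjusted p = 0.99 in edgeR), so that these libraries set its HJ-4 level only to within 0.648 to 1.56 times that of DMSO. The sign of BIRC6 turned with total counts (-0.019) and when HJ-4 replicate 1 (-0.11) or DMSO replicate 1 (-0.30) was left out. XIAP lies on chromosome X of GRCh38 from 123859712 to 123913972 and BIRC6 on chromosome 2 from 32357023 to 32619571.

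Of the antagonists, DIABLO was slightly higher with HJ-4, HTRA2 overlapped between conditions and XAF1 was close to the detection limit. DIABLO, whose product SMAC binds the BIR domains of IAPs, had 51.0 and 49.0 CPM with HJ-4, against 42.8 and 42.6 CPM with DMSO. The libraries of each condition lay within a factor of 1.04 with HJ-4 and 1.01 with DMSO, and the nearest libraries of the 2 conditions were 1.14 times apart. The log2 fold change of DIABLO was 0.23 (standard error 0.087, 95% interval 0.0025 to 0.45, adjusted p = 0.31 in edgeR) and stayed between 0.21 and 0.24 when 1 library was left out. The annotated DIABLO gene, on chromosome 12 from 122207663 to 122227456, shares 970 exon bases with B3GNT4 on the opposite strand, which was at 9.98 and 10.1 CPM with HJ-4 and at 13.2 and 13.1 CPM with DMSO. No source used here says whether the counting used strand, so reads of DIABLO and B3GNT4 may not be told apart there. It also shares exon bases on its own strand with 2 further annotated genes, of which 1 was in the table with at most 6 counts in a library.

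HTRA2, the gene of a mitochondrial serine protease that cleaves IAPs once released, was at 27.3 and 28.4 CPM with HJ-4 and at 25.7 and 31.8 CPM with DMSO. Both HJ-4 libraries fell between the DMSO libraries. The log2 fold change was -0.046 (standard error 0.13, 95% interval -0.39 to 0.30, adjusted p = 0.89 in edgeR), and it was 0.12 without DMSO replicate 2. HTRA2, on chromosome 2 from 74529596 to 74533350, shares 165 exon bases with AUP1 and 936 with LOXL3, both on the opposite strand. XAF1, an interferon-inducible gene whose product binds XIAP, held 2 and 0 counts in the HJ-4 libraries and 6 and 0 counts in the DMSO libraries. It lies on chromosome 17 from 6755447 to 6775647, did not pass the filter and was not tested. A count of 0 allows up to 0.0899 CPM in HJ-4 replicate 2 and up to 0.0997 CPM in DMSO replicate 2 (3 counts per library, counting error only), and no fold change is given.

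Levels can be compared between genes only per length, and TPM (transcripts as a share of all, per length) was computed for that from the counts and the exon length of each gene. BIRC5 averaged 47.0 ± 7.63 TPM with HJ-4 and 65.4 ± 0.521 TPM with DMSO, as SD with n = 2 each. BIRC3 averaged 53.7 ± 0.591 TPM with HJ-4 and 34.9 ± 1.57 TPM with DMSO, and API5 48.1 ± 3.45 TPM with HJ-4 and 23.0 ± 4.75 TPM with DMSO. With DMSO the highest mean of the family was that of BIRC5. With HJ-4 the order at the top depends on the length used, since BIRC3 had the highest mean by the exon length, but by the longest transcript BIRC5 did, at 49.2 ± 8.09 TPM beside 44.6 ± 3.10 TPM for API5 and 43.5 ± 0.375 TPM for BIRC3. Over the 4 libraries the order by mean TPM was BIRC5 (56.2), BIRC3 (44.3), BIRC2 (38.6), API5 (35.5), HTRA2 (28.2), XIAP (26.6), DIABLO (22.6), BIRC6 (10.4) and XAF1 (0.0321). Neighbours in that order overlapped in range over the 4 libraries except DIABLO with BIRC6 and BIRC6 with XAF1. The rest of the order depends on the length as well: over the 4 libraries, by the longest transcript, HTRA2 (39.8 TPM) and DIABLO (37.8 TPM) came after BIRC5 (59.1 TPM) and before BIRC3 (36.0 TPM).
The 6 inhibitors summed to 225 and 231 TPM with HJ-4 and to 187 and 203 TPM with DMSO, and the 3 antagonists to 53.0 and 51.8 TPM with HJ-4 and to 46.4 and 51.9 TPM with DMSO. The ratio of antagonists to inhibitors was 0.235 and 0.225 in the HJ-4 libraries and 0.248 and 0.256 in the DMSO libraries. These sums were taken by the exon length, move with the length used, mix genes of different function and were not tested.

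**Figure D3:**
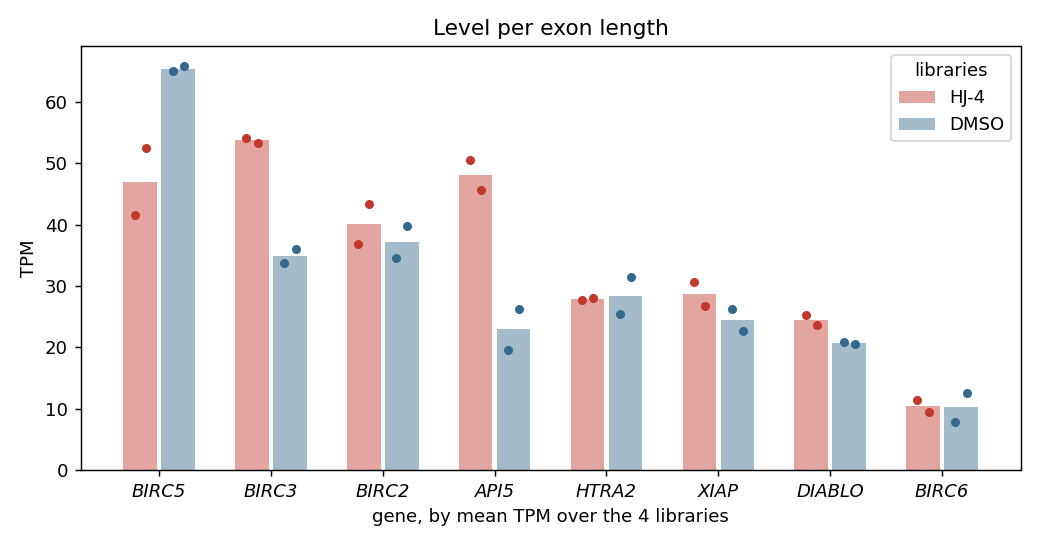
TPM by exon length of the 8 tested genes, in the order of their mean over the 4 libraries, with HJ-4 to the left of DMSO for each gene. Bars are group means, points are libraries and the axis starts at 0, and BIRC5 leads with DMSO (65.4 TPM) while BIRC3 leads with HJ-4 (53.7 TPM), where by the longest transcript BIRC5 leads in both conditions.

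Of the apoptosome, the complex on which released cytochrome c activates the initiator caspase that XIAP binds, the caspase gene CASP9 was at 13.7 and 15.2 CPM with HJ-4 and at 12.6 and 16.1 CPM with DMSO (log2 fold change 0.012, standard error 0.16). For the cytochrome c gene CYCS the log2 fold change was -0.076 (standard error 0.11). The conditions overlapped for both genes. APAF1, the scaffold of the complex, was at 43.98 and 25.5 CPM with HJ-4 and at 44.9 and 22.2 CPM with DMSO, so that the libraries of each condition differed far more than the conditions did. Both replicate 1 libraries lay above both replicate 2 libraries for this gene.
Of 11 further IAP genes and regulators of IAPs, 10 were tested, with a median log2 fold change of 0.05. None passed in edgeR over all genes or in DESeq2. Without adjustment 0 were higher and 1 was lower at 0.05, where 7.93% of all genes were higher and 7.93% lower. These unadjusted counts changed without HJ-4 replicate 1 (median 0.03) and without DMSO replicate 2 (median 0.07). The lower gene of the full fit was SEPTIN4, at 12.1 and 12.7 CPM with HJ-4 and at 16.9 and 16.8 CPM with DMSO (log2 fold change -0.44, adjusted p = 0.20 in edgeR). Its isoform ARTS antagonizes XIAP, but the counts are per gene and do not separate ARTS from the other SEPTIN4 transcripts. FGF2, whose product binds API5, had a log2 fold change of 0.22. NAIP, another IAP gene, had 0.27, but its reads may be shared with the copies of that gene. BIRC7, the gene of livin, stayed under 1 CPM in each library.

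The genes that work with the cIAP proteins in TNF receptor signalling lay on both sides. Of 16 tested, 8 lay above and 8 below a log2 fold change of 0. None passed in edgeR over all genes, and DESeq2 called 1 as higher, where 2.15% of all genes it adjusted were. Without adjustment 3 were higher and 2 lower at 0.05, where 7.93% of all genes were higher and 7.93% lower. These unadjusted counts changed with the library left out, while the median log2 fold change of the list stayed between -0.02 and 0.01. RBCK1, the gene of HOIL-1, a subunit of the linear ubiquitin ligase, was at 171 and 167 CPM with HJ-4 and at 103 and 97.1 CPM with DMSO (log2 fold change 0.75, standard error 0.082, adjusted p = 0.079 in edgeR). For TRAF1, an adaptor that recruits cIAPs, the log2 fold change was 0.76, and for the receptor gene TNFRSF1A 0.34. RIPK1, the gene of a kinase that cIAPs ubiquitinate, was at 25.3 and 26.6 CPM with HJ-4 and at 30.8 and 35.6 CPM with DMSO (log2 fold change -0.36, adjusted p = 0.26 in edgeR).

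Known targets of NF-κB, of which BIRC3 is one, were the partner list with the highest median. All 16 tested of 17 listed (SOD2 was not matched) had a log2 fold change above 0, their median was 0.58, and BIRC3 at 0.60 stood in the middle of them, 8 having a higher value. None of the 16 passed in edgeR over all genes, and DESeq2 called 6 as higher, where 2.15% of all genes it adjusted were. Without adjustment 12 were higher and 0 lower at 0.05, where 7.93% of all genes were higher and 7.93% lower. Without HJ-4 replicate 2, 7 were higher, where 3.79% of all genes were, and the median was 0.44. The chemokine gene CXCL8 was at 22.2 and 19.5 CPM with HJ-4 and at 11.2 and 9.64 CPM with DMSO (log2 fold change 1.00, adjusted p = 0.11 in edgeR). In log2 fold change, PLAU, the gene of urokinase, had 0.85 (adjusted p = 0.079), the transcription factor gene IRF1 0.75 (adjusted p = 0.11) and the stress gene IER3 0.46 (adjusted p = 0.16), all in edgeR. The list was chosen with earlier results of these data known.
XAF1 is also known as an interferon-stimulated gene. Of 24 others on a list of such genes 23 were tested, while IFI44L, like XAF1, was near the floor, with 11 and 9 counts with HJ-4 and 4 and 6 counts with DMSO. Of the 23, 18 had a log2 fold change above 0, as did 7122 of all 14044 genes, and the median over the 23 was 0.22. None passed in edgeR over all genes, and DESeq2 called 1 as higher, where 2.15% of all genes it adjusted were. Without adjustment 4 were higher and 0 lower at 0.05, where 7.93% of all genes were higher and 7.93% lower. These unadjusted counts changed with the library left out, and the median of the list then lay between 0.14 and 0.30. IFIH1, the gene of the RNA sensor MDA5, was at 77.2 and 79.9 CPM with HJ-4 and at 41.3 and 53.5 CPM with DMSO (log2 fold change 0.73, adjusted p = 0.17 in edgeR). RSAD2, the gene of viperin, had a log2 fold change of 0.84, OAS1, a sensor of double-stranded RNA, of 0.75 and BST2, the gene of tetherin, of 0.67.

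**Figure D4:**
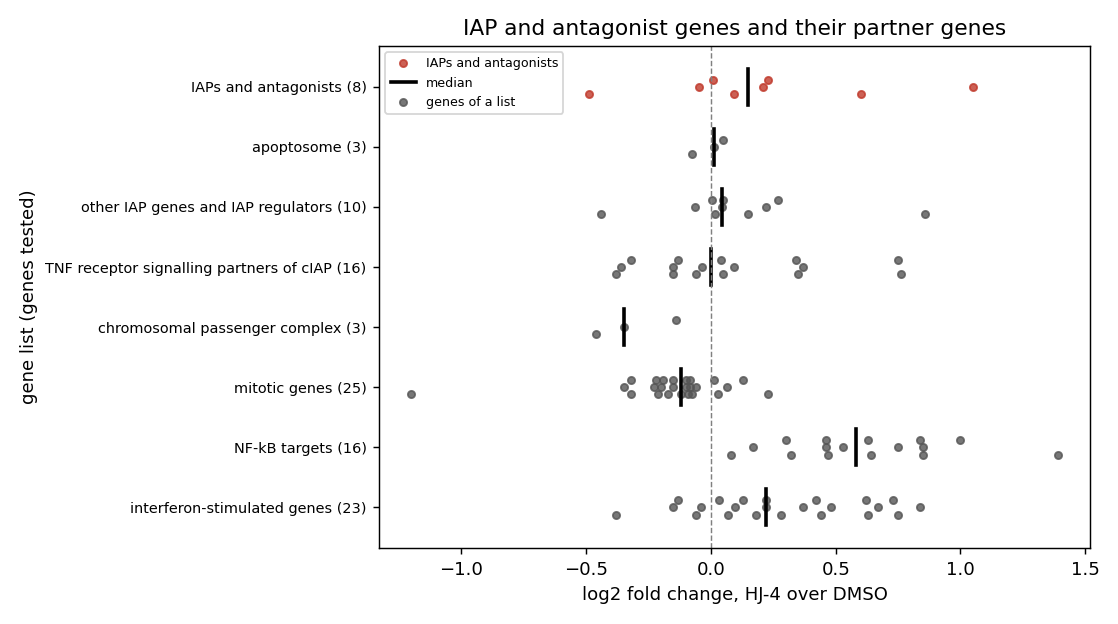
Log2 fold change (HJ-4 over DMSO) of the 8 tested IAP and antagonist genes and of the tested genes of 7 partner lists, with the number tested in brackets. Each gene is a point and each list median a vertical bar, at 0.15 for the IAPs and antagonists, -0.35 for the chromosomal passenger complex, -0.12 for the mitotic genes and 0.58 for the NF-κB targets.

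Some genes shared the profile of API5 or BIRC5 across the 4 libraries. Likeness was measured as the root mean square difference of mean-centred log2 CPM over the 4 libraries, among 11164 genes that averaged 5 CPM or more. The nearest to API5 were KREMEN1, the gene of a DKK receptor (difference 0.095), the chemokine gene CXCL1 (0.108) and IRF1-AS1 (0.109), an antisense gene whose reads may not be told apart from those of its partner if strand was not used. KREMEN1 was at 136 and 142 CPM with HJ-4 and at 54.8 and 84.8 CPM with DMSO, and like API5 it was lower in DMSO replicate 1 than in DMSO replicate 2. The nearest to BIRC5 were NR2F2, the gene of an orphan nuclear receptor (difference 0.032), OTUD7A, the gene of a deubiquitinase (0.039), and the Wnt ligand gene WNT3 (0.044). NR2F2 was at 56.0 and 67.9 CPM with HJ-4 and at 87.1 and 86.8 CPM with DMSO, again with the lowest value in HJ-4 replicate 1. The genes were picked by these same values, so a shared order of the libraries is largely given by the choice. Likeness over 4 libraries is a description and was not tested.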

How the data were processed

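The values are raw counts per Ensembl gene ID, unnormalized whole numbers, which the authors deposited as 1 table covering the 4 libraries. The paper's methods name STAR alignment to GRCh38 and featureCounts, whereas the submitters' processing notes list HISAT2, RSEM and bedtools, beside FastQC and Trimmomatic in both. The program behind the counts, its annotation and its strand setting are not given in the sources used here. A counter that splits or drops reads of overlapping genes may move the counts of DIABLO and HTRA2, which was not tested. BIRC3, API5 and BIRC6 share 126, 201 and 49 exon bases with opposite-strand long non-coding RNAs that were not counted. XAF1 shares 2535 with an opposite-strand gene that was not counted. Columns were matched to samples by library name, and symbols were taken from GENCODE v44 (20148 of 20263 IDs matched).

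Genes kept by filterByExpr (14044) went through TMM scaling, glmQLFit and glmQLFTest of edgeR 4.0.16 (R 4.3.3), in a model of condition alone, with p adjusted over all of them by Benjamini-Hochberg, because the values are counts, where the paper names limma. Standard errors were derived from the F statistic. CPM are TMM-scaled, TPM were computed here from the counts and the union of exons, and log2 CPM used a prior count of 2. Counts of same-condition libraries differed beyond sampling noise, at a chi-square of 21.9 with HJ-4 and 36.5 with DMSO for each degree of freedom. The tests were first run on simulated data. Alternatives were to leave out each library, to add the replicate number as a block, to use size factors or the Wald test of DESeq2 1.42.0, total counts, the longest transcript for TPM, no filter or a mean of at least 5 CPM, and limma-voom (limma 3.58.1). The genes and lists were chosen with earlier results of these data known. Named were the 9 genes, all genes of lists of up to 5, the 4 with the smallest p of longer lists, and the 3 genes most alike in profile to each of API5 and BIRC5. Among the tested IAP and antagonist genes that averaged 5 CPM or more, API5 (1.34) and BIRC5 (0.699) had the widest range of log2 CPM, BIRC5 only just ahead of BIRC6 (0.694). In addition, genes at the limits of the marker lists and genes overlapping DIABLO and HTRA2 were named after their values were seen. Some genes listed as partners are not reported here, and the apoptosome list, shortened for that reason after its values were known, is given by values alone.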

Additional observations from a re-analysis of the deposited data

How the results depend on the processing

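The edgeR test called 7 genes in all, 0 of the 8 IAP and antagonist genes and 0 of their listed partner genes. DESeq2's Wald test called 505 genes in all (3.67% of those it adjusted), 2 of the 8 and 10 of the partner genes. Of these 10, 6 were on the list of NF-κB targets, which like the other lists was chosen with earlier results known. Without a filter 12 genes were called in all. Leaving out 1 library gave 0 to 88 genes in all and 0 to 2 partner genes (2 without DMSO replicate 1), and 0 of the 8. With the replicate number as a block, 31 genes were called in all and 0 of the 8. Over the 14044 genes tested, samples that share a number did not deviate together (correlation -0.0429), though single genes such as APAF1 did. Nothing in the labels says that the numbers pair them. The cause of these differences was not tested.
For single genes, the sign turned in 6 of 88 alternative fits. BIRC6 ranged from -0.30 to 0.40 when 1 library was left out and was -0.019 with total counts. BIRC2 ranged from -0.059 to 0.23 and HTRA2 from -0.19 to 0.12 when 1 library was left out. API5 (0.85 to 1.28), BIRC3 (0.55 to 0.65), XIAP (0.11 to 0.32), DIABLO (0.20 to 0.24) and BIRC5 (-0.70 to -0.31) kept their sign in all 11 alternatives each.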
